A study of Caenorhabditis elegans with 2 samples.

Results

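The *hsp-16* genes described here are 6 protein-coding genes of *Caenorhabditis elegans*, *hsp-16.1*, *hsp-16.11*, *hsp-16.2*, *hsp-16.41*, *hsp-16.48* and *hsp-16.49*, of 19973 in the annotation. They were chosen by name and by measured values of these data: every one has a peak of the tagged LSY-12 protein that passed the authors' reproducibility threshold within 5000 bp of its start, so that this proximity is a description and no test is attached to it. In all, 3 of the 2095 thresholded peaks had their summit in that window of at least 1 of the 6 genes. *hsp-16.20* and *hsp-16.21*, which also bear the name, are not among the 6 and had no thresholded summit within 5000 bp. The values came from ChIP-seq (chromatin immunoprecipitation with sequencing), in which DNA bound by a protein is recovered with an antibody and read. LSY-12 belongs to the MYST family of histone acetyltransferases and is known for its part in giving the left and right ASE taste neurons different identities.

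There was 1 group of 2 biological replicates, numbered 3 and 4 in the labels, and so no second condition to compare. The worms were whole L3 larvae of both sexes, pooled, collected 43 h after release from a starved L1 synchronization. The strain, OP568, carries unc-119(tm4063) III and the integrated transgene wgIs568, which makes LSY-12 with a GFP-FLAG tag at its C-terminus, and chromatin was precipitated with an antibody to GFP. No heat treatment is named in the labels, the promoter that drives the transgene is not given in the sources used here, and no worms without the tagged protein were analysed here. In whole animals, a peak present in few cells and a weak peak in many cells cannot be told apart.

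Small heat shock proteins hold unfolding proteins in a soluble state until other chaperones can refold them. The *hsp-16* genes are known as among the most strongly heat-induced genes of the worm and are nearly silent without stress. Their induction depends on the heat shock factor HSF-1, which binds as a trimer to heat shock elements, in which the short units TTC and GAA alternate. The genes lie as divergent pairs, each pair reading away from a shared stretch of promoter DNA.

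All 6 genes lie on chromosome V (build ce11, the same assembly as WBcel235), each with 2 exons. *hsp-16.2* (WBGene00002016, chrV:1804334-1804957, minus strand) and *hsp-16.41* (WBGene00002018, chrV:1805178-1805875, plus strand) form a pair of their own, with 220 bp between the annotated starts. The other 4 genes form 2 pairs in a cluster farther along the chromosome. *hsp-16.1* (WBGene00002015, chrV:9087293-9087782, minus strand) and *hsp-16.48* (WBGene00002019, chrV:9088131-9088617, plus strand) have 348 bp between their starts. *hsp-16.49* (WBGene00002020, chrV:9089280-9089766, minus strand) and *hsp-16.11* (WBGene00002017, chrV:9090077-9090604, plus strand) have 310 bp between theirs. The annotated starts of *hsp-16.1*, *hsp-16.48* and *hsp-16.49* are their coding starts. Ahead of the coding start, 38 bp are annotated for *hsp-16.11*, 33 bp for *hsp-16.2* and 93 bp for *hsp-16.41*. The lengths between starts thus depend on the annotation and are not like for like.

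The promoter stretches are shown because the peak at the first pair lies in one of them and no region of any list lies in the others. They were read from the reference genome, RefSeq WBcel235, 5′ to 3′. Capitals mark heat shock elements, searched on both strands as 3 alternating TTC and GAA units, each separated by any 2 bases, without regard to overlap with other motifs. The first line is the whole stretch between the starts of *hsp-16.2* and *hsp-16.41*, chrV:1804958-1805177, plus strand. The second is the central part of the stretch between *hsp-16.1* and *hsp-16.48*, chrV:9087821-9088061, plus strand, and it is letter for letter the same as chrV:9089836-9090076, minus strand, between *hsp-16.11* and *hsp-16.49*. The third is the DNA within 75 bp of the summit of the peak between the duplicated pairs, chrV:9088931-9089081, plus strand.
hsp-16.2 and hsp-16.41: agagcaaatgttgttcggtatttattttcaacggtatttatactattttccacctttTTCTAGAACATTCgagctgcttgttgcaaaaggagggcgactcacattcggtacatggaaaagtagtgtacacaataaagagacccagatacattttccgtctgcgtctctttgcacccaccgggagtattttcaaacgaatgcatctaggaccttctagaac
hsp-16.1 and hsp-16.48, and hsp-16.11 and hsp-16.49: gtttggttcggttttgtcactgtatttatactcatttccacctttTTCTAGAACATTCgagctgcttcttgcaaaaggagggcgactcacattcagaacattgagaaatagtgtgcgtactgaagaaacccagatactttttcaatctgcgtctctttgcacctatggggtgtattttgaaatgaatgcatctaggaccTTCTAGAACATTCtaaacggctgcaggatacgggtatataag
DNA between the duplicated pairs, around the summit: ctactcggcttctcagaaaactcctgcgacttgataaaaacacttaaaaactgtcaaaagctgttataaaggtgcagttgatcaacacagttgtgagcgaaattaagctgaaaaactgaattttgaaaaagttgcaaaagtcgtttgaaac

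Both promoter lines align over 208 columns with 176 identical bases, 84.6%. The same 13 letters, TTCTAGAACATTC, stand 2 times at each of the 3 pairs, with 154 bp from the first base of one to the first base of the other in every pair. At *hsp-16.2* and *hsp-16.41* the matches are chrV:1805015-1805027 and chrV:1805169-1805181. The second runs past the annotated start of *hsp-16.41*, and is therefore cut off and in lower case at the end of the first line. At *hsp-16.1* and *hsp-16.48* they are chrV:9087866-9087878 and chrV:9088020-9088032, and at *hsp-16.49* and *hsp-16.11* chrV:9089865-9089877 and chrV:9090019-9090031. A match with 3 units was found in 78 of the 1745 stretches between divergent protein-coding genes with starts at most 1000 bp apart, 4.47%, and 2 or more matches in 12 of them, 0.688%. It was found in 325 of the 19973 windows of 250 bp upstream of a protein-coding gene, 1.63%. Wholly between the starts, the stretch at *hsp-16.2* and *hsp-16.41* holds 1 such match.

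The letters TATATAA, a form of the TATA box at which the basal transcription machinery assembles, lie on the side of the class of genes with 143-residue proteins in every pair. Their end nearest the gene lies 71 bp before the coding start of *hsp-16.48* and of *hsp-16.49*, and 62 bp before that of *hsp-16.41*, where they stand downstream of the annotated start. TATAAA lies on the other side, toward *hsp-16.2*, *hsp-16.1* and *hsp-16.11*. Of the stretches between divergent genes, 15.4% hold TATATAA and 54.4% hold TATAAA on either strand. These are letter matches and not measured sites of any factor.

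The proteins fall into 2 classes, which differ in length and sequence. *hsp-16.1*, *hsp-16.11* and *hsp-16.2* encode proteins of 145 residues, and *hsp-16.41*, *hsp-16.48* and *hsp-16.49* proteins of 143 residues. The coding sequences of *hsp-16.1* and *hsp-16.11* did not differ at any base, and neither did those of *hsp-16.48* and *hsp-16.49*. *hsp-16.2* was 90.6% identical to *hsp-16.1*, with 41 differences, and *hsp-16.41* was 92.1% identical to *hsp-16.48*, with 34 differences. Between the classes the identity was 57.0% to 60.1%. Each divergent pair thus holds 1 gene of each class.

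The deposited lists describe each region by a signal whose scale the authors do not state, so each value is given as a relative signal, the region's signal divided by the median of the 30000 candidate regions in the same list. Candidate regions are the regions and background from which the thresholded peaks were made, and ranks run from 1 for the strongest. The medians were 57.3 in the list pooled over both replicates, 36.4 in replicate 3 and 26.8 in replicate 4. The depth of the libraries is unknown here, and the 2 replicates are the only measure of error. The thresholded list held exactly the 2095 strongest pooled regions.

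*hsp-16.2* and *hsp-16.41* shared a peak whose summit lay between their starts. The thresholded peak, chrV:1804961-1805370, had its summit at chrV:1805166, 209 bp upstream of the start of *hsp-16.2* and 12 bp upstream of that of *hsp-16.41*. The second heat shock element begins 3 bp past that summit, and both matches lie within the peak. In the pooled list, 99.3% of summits stand at the midpoint of their region, so that 3 bp is not a precise distance. A match with 3 units lay in 53 of the 2095 thresholded peaks, 2.53%. The relative signal of the shared peak was 2.54 in replicate 3 and 2.83 in replicate 4, a mean of 2.69 ± 0.199 (SD, n = 2). The replicates lay close together, and their own summits were 10 bp apart. The region ranked 1316 in replicate 3, in the strongest 4.39%, with a q-value of 0.0232, and 1116 in replicate 4, in the strongest 3.72%, with a q-value of 0.00583. In the pooled list the relative signal was 2.92, the q-value 0.0074 and the rank 1150 of 2095 thresholded peaks, so that the peak was near the middle of that list.

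The other candidate regions around the first pair were weak. Besides the shared peak, 3 pooled candidates had summits within 5000 bp of these starts, at relative signals of 0.825 to 0.972, below the median candidate. One of them lay in *srt-41* and another in *srt-42*, the neighbouring protein-coding genes, which belong to a family of candidate chemoreceptor genes. The start of *srt-41* lies 1814 bp from that of *hsp-16.2*, and the start of *srt-42* lies 2282 bp from that of *hsp-16.41*. The shared *hsp-16* summit was also the nearest thresholded summit to both neighbours, at 2023 bp and 2294 bp upstream of their starts.

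**Figure D1:**
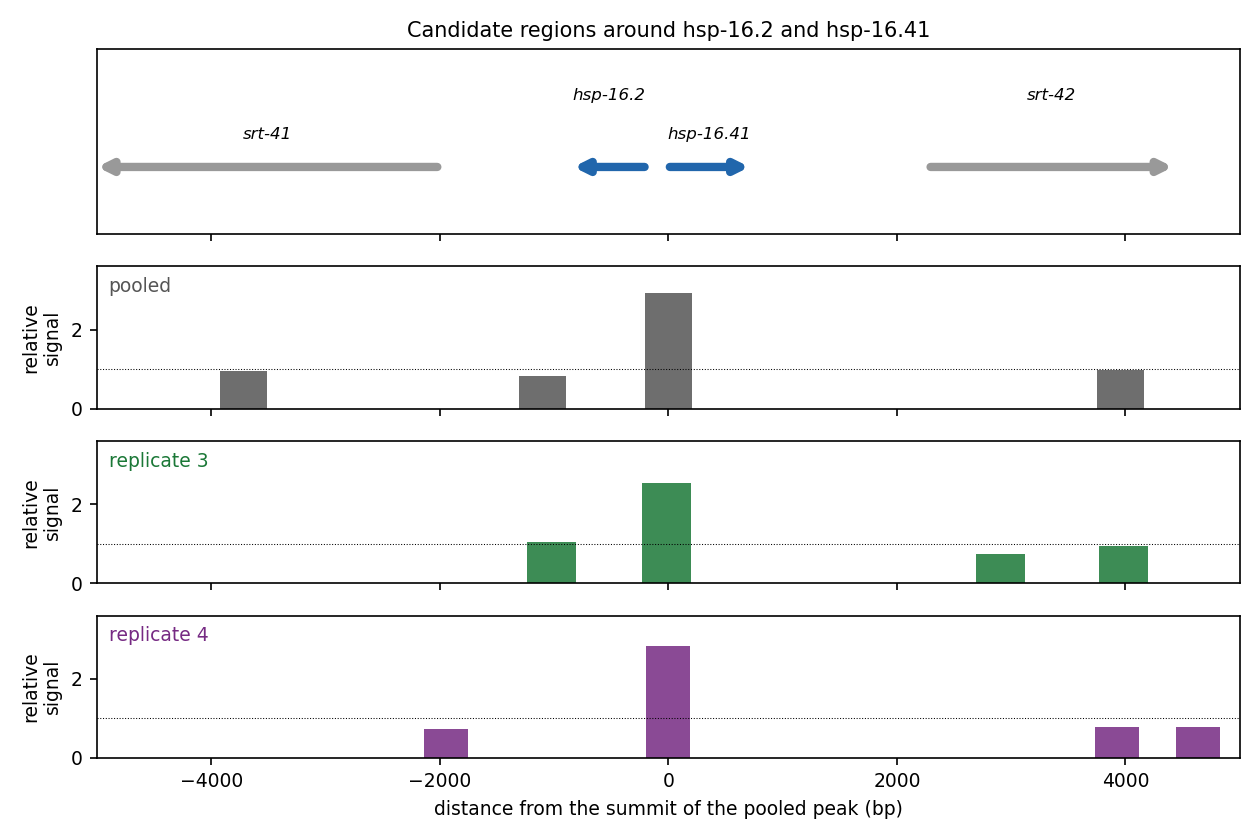
Candidate regions around *hsp-16.2* and *hsp-16.41*: the top panel shows gene positions and directions (blue for *hsp-16* genes, grey for neighbours), and each lower panel 1 list, with bars spanning a region on the horizontal axis (bp from the summit of the pooled peak) and relative signal on the vertical axis. The dotted line is the median candidate; the only bar above 2 in each list is the peak between the starts, at 2.54 in replicate 3 and 2.83 in replicate 4.

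The other 4 genes lie in an inverted repeat. Its left arm is chrV:9086851-9088741, with *hsp-16.1* and *hsp-16.48*, and its right arm chrV:9089156-9091046, with *hsp-16.49* and *hsp-16.11*. The arms are 1891 bp long and differ at 1 base, outside the *hsp-16* genes, with no gap. Each also holds a gene for a small nuclear RNA, T27E4.11 on the left, which contains the differing base at chrV:9086860, and T27E4.10 on the right. Of the 32-letter words (32-mers) in the stretch between the starts, 100% occur more than once in the genome for *hsp-16.1* and *hsp-16.48* and for *hsp-16.49* and *hsp-16.11*, against 1.06% for *hsp-16.2* and *hsp-16.41*. Across 1403 bp, the locus of *hsp-16.2* and *hsp-16.41* aligned to the left arm at 85.8% identity.

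No summit of any list lay in either arm. The thresholded list, the pooled list, replicate 3 and replicate 4 each had 0 summits there, and no region of any list overlapped the stretch between the starts of either duplicated pair. At the average density over the genome, 2.99 candidate regions per 10 kb, a length equal to both arms holds 1.13 regions. The spacer between the arms, chrV:9088742-9089155, is 414 bp of sequence with 0% repeated 32-mers, and it held 1 summit in every list.

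The peak in that spacer, chrV:9088801-9089210 with its summit at chrV:9089006, lay in no gene, between the 3′ ends of *hsp-16.48* and *hsp-16.49*. Of its 410 bp, 355 lay in the spacer and 55 in the arms. The summit was 760 bp downstream of the start of *hsp-16.49* and 875 bp downstream of that of *hsp-16.48*. It was 1071 bp upstream of the start of *hsp-16.11* and 1224 bp upstream of that of *hsp-16.1*. Its relative signal was 2.86 in replicate 3 and 1.70 in replicate 4, a mean of 2.28 ± 0.821 (SD, n = 2). Replicate 3 was the higher, and this spread was wider than at the *hsp-16.2* and *hsp-16.41* peak. The region ranked 1005 in replicate 3, with a q-value of 0.0114, and 3297 in replicate 4, with a q-value of 0.153. The replicate summits were 53 bp apart. In the pooled list the relative signal was 2.83 and the rank 1225 of 2095. The spacer peak held no heat shock element with 3 units, and its summit line above has a GC content of 35.8%.

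A further thresholded peak entered the window of 2 of the genes from the side. It spanned chrV:9094185-9094594, overlapped the 3′ end of the neighbouring gene *T27E4.1*, and had its summit 4313 bp from the start of *hsp-16.11*. The protein-coding start nearest to that summit was that of *F21C10.10*, 1877 bp away. The relative signal of the peak was 2.66 in replicate 3 and 1.53 in replicate 4, a mean of 2.09 ± 0.801 (SD, n = 2), and its rank 1785 of 2095. The region ranked 1192 in replicate 3, with a q-value of 0.018, and 4469 in replicate 4, with a q-value of 0.244. As in the spacer, replicate 3 was the higher. On the other side, the nearest protein-coding start outside the cluster, *T27E4.7*, lay 11460 bp from the nearest *hsp-16* start.

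Regions stood on both sides of the limits of the rule. Inside the threshold, the peak at *T27E4.1*, of rank 1785 of 2095, was the weakest of those in the window. It had a pooled signal of 132.020, against 122.187 for the weakest thresholded peak of all. Just outside it, a pooled candidate left of the repeat, chrV:9085815-9086224, had a signal of 121.159, at rank 2124, or 29 ranks below the last thresholded peak. Its summit lay 1762 bp downstream of the start of *hsp-16.1*, beyond its 3′ end, with relative signals of 2.005 in replicate 3 and 2.29 in replicate 4, a mean of 2.15 ± 0.201 (SD, n = 2). Just outside the 5000 bp window, the thresholded peak chrV:9095635-9096044 lay 5763 bp from the start of *hsp-16.11* and 427 bp upstream of that of *F21C10.10*. It had relative signals of 2.17 in replicate 3 and 3.25 in replicate 4, a mean of 2.71 ± 0.760 (SD, n = 2).

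**Figure D2:**
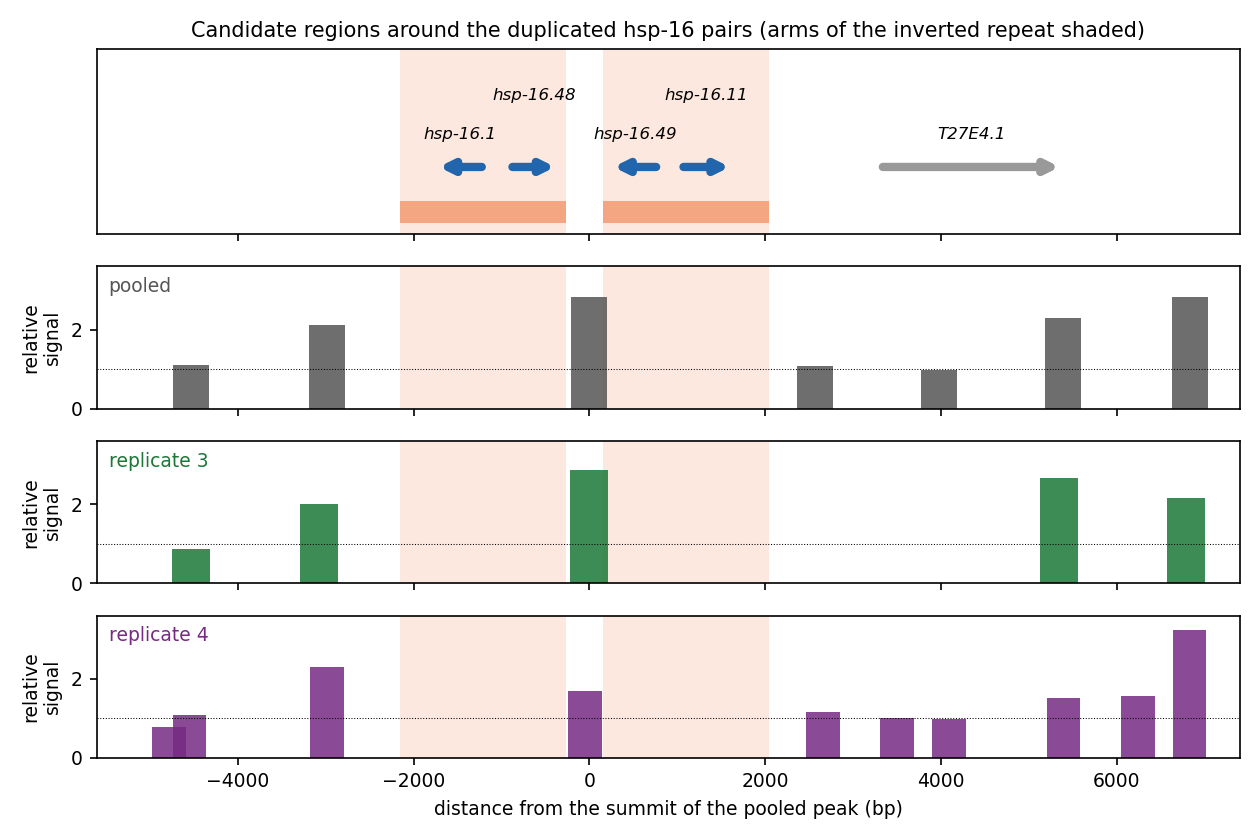
Candidate regions around the duplicated *hsp-16* pairs: genes and lists are drawn as bars by position (bp from the summit of the pooled spacer peak) and relative signal, with the arms of the inverted repeat shaded. No bar has its summit in an arm in any list, and the spacer bar stands at 2.86 in replicate 3 and 1.70 in replicate 4.

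By distance, all 6 *hsp-16* genes had a thresholded summit within 5000 bp, which the rule used, against 18.2% of all protein-coding genes. All 6 also had one within 2000 bp, against 10.3%, and 4 within 1000 bp, against 7.05%. Within 500 bp, 2 of the 6, *hsp-16.2* and *hsp-16.41*, had a thresholded summit, against 5.26% of all genes and 13.2% of the genes in divergent pairs. The same 2 had a pooled candidate summit within 500 bp, against 31.8% of all genes. These counts come from the list that chose the genes, and the genes share peaks. The same summit was nearest to *hsp-16.2* and *hsp-16.41*. The spacer summit was nearest to all of the duplicated genes, across both of their pairs. The counts of genes are therefore not counts of separate peaks.

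The duplicated genes were set beside all genes with repeated sequence around their start. Within 500 bp either side of the start, 100% of 32-mers were repeated for *hsp-16.1*, *hsp-16.11*, *hsp-16.48* and *hsp-16.49*, against 2.89% for *hsp-16.2* and 3.20% for *hsp-16.41*. In all, 274 genes, these 4 included, had over 90% repeated 32-mers there. None of the 274 (0%, which allows a share of up to 1.09% from counting error alone) had a thresholded summit within 500 bp, and 1, or 0.365%, had a pooled candidate summit. Among the 17599 genes with at most 10% repeated, which include *hsp-16.2* and *hsp-16.41*, 33.8% had a pooled candidate and 5.59% a thresholded summit. Between 50% and 90% repeated, 3.51% of 313 genes had a pooled candidate.

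The same held for the regions themselves. Over 90% of 32-mers were repeated in 0 of the 2095 thresholded peaks and in 6, 7 and 7 of the 30000 candidates of the pooled list, replicate 3 and replicate 4. Of windows of 410 bp across the genome, 7599 of 244562, or 3.11%, passed that share. The deposited descriptions name signal tracks made from uniquely placed reads, but whether reads with several placements entered the region calls is not given in the sources used here. At the promoters of *hsp-16.1*, *hsp-16.48*, *hsp-16.49* and *hsp-16.11*, a lack of LSY-12 signal and a lack of placed reads cannot be told apart in these lists, and the part of repeated sequence in their lack of regions was not tested.

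**Figure D3:**
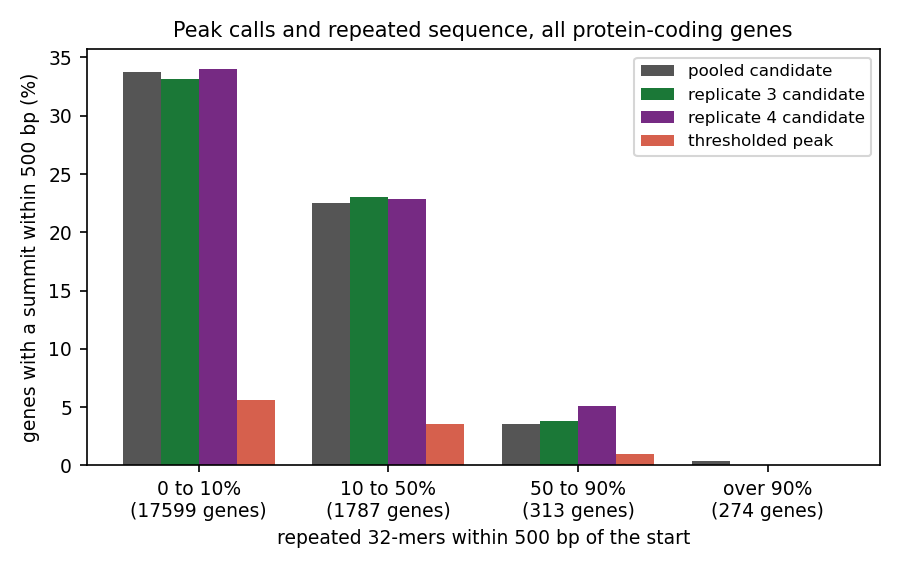
Share of protein-coding genes with a summit within 500 bp of the start (vertical axis, %) by the share of repeated 32-mers in that window (horizontal axis, with the number of genes), for the 4 lists. In the over 90% class, which holds the 4 duplicated *hsp-16* genes, the share was 0.365% for pooled candidates and 0% in the other lists, against 33.8% for pooled candidates in the lowest class.

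Set among other shared promoters, the *hsp-16.2* and *hsp-16.41* peak was in the lower part. Of the 1745 divergent pairs, 226 had a thresholded summit between the starts, with mean relative signals from 1.74 to 28.2 and a median of 3.59. The *hsp-16* pair, at 2.69, ranked 156 among them. The pairs whose replicate values lay nearest to it, by distance on the log2 scale over the 2 replicates, were *wts-1* and *T20F10.2* at 2.74 ± 0.337 (SD, n = 2), *F27D4.7* and *F27D4.4* at 2.59 ± 0.298, and *ruvb-1* and *tofu-1* at 2.59 ± 0.0662. *wts-1* encodes a kinase related to Warts of *Drosophila*, and *ruvb-1* an ATPase related to RuvB. Nearest to the spacer peak were *Y71G12B.30* and *chaf-2* at 2.30 ± 0.935, *tbb-1* and *rib-2* at 2.13 ± 0.622, and *alh-6* and *fcho-1* at 2.26 ± 0.482. Each was higher in replicate 3, which follows from choosing them by their values in both replicates. *chaf-2* encodes a subunit of a chromatin assembly factor and *tbb-1* a beta-tubulin. Nearest to the peak at *T27E4.1* were *tbb-1* and *rib-2* again, *pdi-1* and *C14B1.2* at 2.04 ± 0.563, and *clh-5* and *T24H10.1* at 1.92 ± 0.732.

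**Figure D4:**
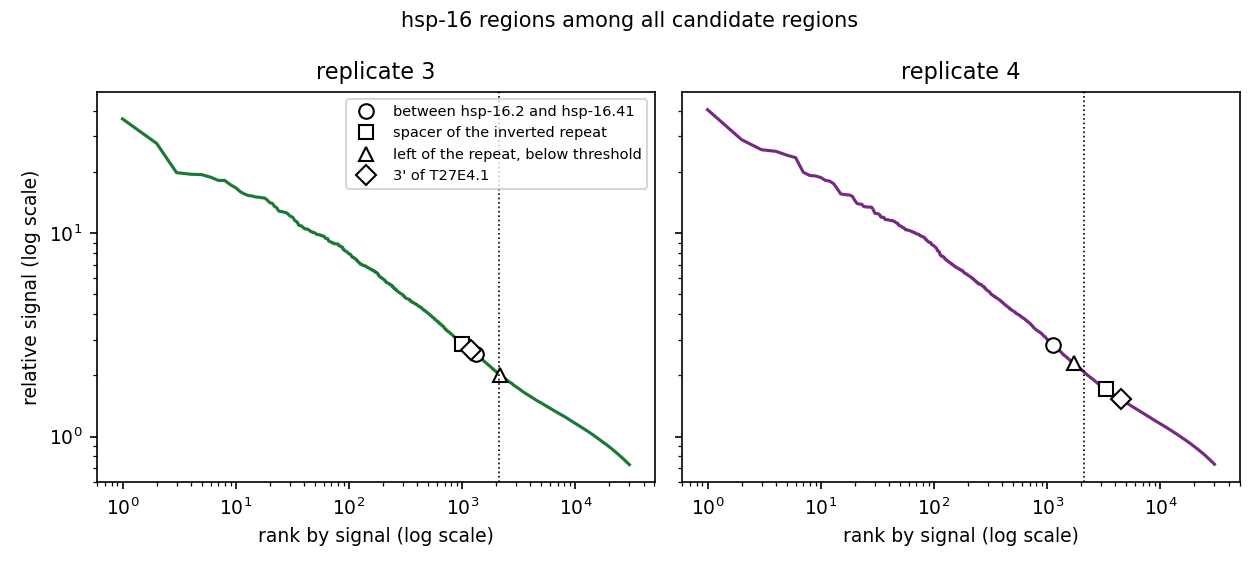
Relative signal (vertical axis, log scale) by rank (horizontal axis, log scale) for all 30000 candidate regions of each replicate, with the *hsp-16* regions as symbols and rank 2095 as a dotted line. The *hsp-16.2* and *hsp-16.41* region ranked 1316 and 1116, inside the line in both replicates, whereas the spacer region ranked 1005 in replicate 3 and 3297 in replicate 4.

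Other small heat shock genes had no thresholded peak at their starts. Of 10 listed, *hsp-12.1*, *hsp-12.2*, *hsp-12.3*, *hsp-12.6*, *hsp-17*, *hsp-25*, *hsp-43*, *sip-1*, *hsp-16.20* and *hsp-16.21*, 0 had a thresholded summit within 500 bp, where the count was 2 of the 6 *hsp-16* genes and 5.26% of all genes, and 3 had one within 5000 bp, where it was 18.2% of all genes. *hsp-12.3* and *hsp-12.6*, neighbours on chromosome IV, had the same peak in that window, of rank 202, with relative signals of 5.96 in replicate 3 and 6.04 in replicate 4. Its summit lay in neither gene, 907 bp downstream of the start of *hsp-12.3* and 2628 bp downstream of that of *hsp-12.6*, beyond the 3′ end of both. *hsp-25* had a summit 1397 bp upstream, of rank 1458, at 2.03 ± 0.172 (SD, n = 2). Both these peaks lie farther from a start than the peak between *hsp-16.2* and *hsp-16.41*.

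Several chaperone genes with roles in the general heat shock response had stronger peaks at their starts than *hsp-16.2* and *hsp-16.41*. The list had 13 names for 12 genes, since *daf-21* is the older name of *hsp-90*, and all 12 were matched. Of these, 6 had a thresholded summit within 500 bp, against 5.26% of all genes, with mean relative signals from 4.49 to 19.0, all above the 2.69 at *hsp-16.2* and *hsp-16.41*. *hsp-1*, which encodes the constitutive Hsp70, had a peak of rank 7, 375 bp upstream, at 19.0 ± 0.188 (SD, n = 2). *dnj-13*, which encodes a J-domain partner of Hsp70, had one of rank 34, 190 bp upstream, at 11.9 ± 2.92 (SD, n = 2). *F44E5.4* and *F44E5.5*, heat-inducible Hsp70 genes that also form a divergent pair, shared a peak of rank 40 at 10.4 in replicate 3 and 11.5 in replicate 4. Within 500 bp of their starts 73.1% of 32-mers were repeated, and 8.06% within the peak itself. For each duplicated *hsp-16* gene the share within 500 bp was 100%, and no summit of any list lay there. The others were *hsp-110*, an Hsp70 exchange factor, and *dnj-12*, another J-domain protein. Within 5000 bp the count was 7, with *hsp-90*. The *hsp-90* peak, of rank 11, had its summit 866 bp downstream of the start. Its relative signal was 15.2 in replicate 3 and 18.8 in replicate 4.

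The remaining genes of that list had no thresholded summit within 5000 bp. They include *hsf-1* itself, its negative regulators *hsb-1* and *ddl-1*, and *hsp-4*, an Hsp70 of the endoplasmic reticulum. *hsp-70*, another heat-inducible Hsp70 gene, named here after its values were seen, had a candidate within 500 bp at 1.47 in replicate 3 and 1.82 in replicate 4, below the threshold and below the *hsp-16.2* and *hsp-16.41* values in both replicates. Among these heat-inducible genes, the mean relative signal was 2.69 ± 0.199 at *hsp-16.2* and *hsp-16.41*, against 1.65 ± 0.245 at *hsp-70* and 11.0 ± 0.809 at *F44E5.4* and *F44E5.5* (SD, n = 2 each). The *hsp-16* genes were chosen for a thresholded peak and *hsp-70* has none, so its lower place in the pooled list follows from that choice. With 2 replicates of 1 group, no test was made of these differences.

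**Figure D5:**
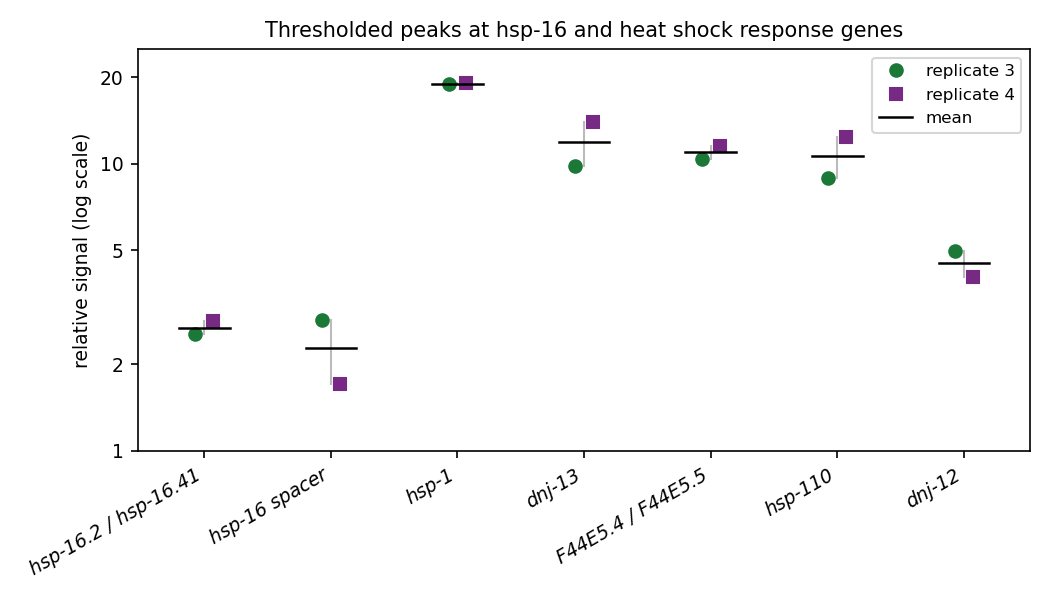
Relative signal (vertical axis, log scale) of the thresholded peaks at *hsp-16* genes and at the heat shock response genes with a summit within 500 bp, with replicate 3 as circles, replicate 4 as squares and the mean as a line. The peak between *hsp-16.2* and *hsp-16.41*, at a mean of 2.69, lies below the 4.49 to 19.0 of the other genes. The spacer peak, at 2.28, is 760 bp or more from any *hsp-16* start and is not a promoter peak like the others.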

How the data were processed

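Regions of LSY-12 ChIP-seq from 2 replicate samples were used in the 4 lists deposited on build ce11: per replicate, pooled, and past the threshold on the irreproducible discovery rate. Lists on build ce10 were not used. The authors made candidate regions from the alignments and a control alignment, per the descriptions deposited with the samples. The sources used here do not give the aligner, the caller or the signal scale. Each deposited region has a signal and a −log10 q-value, which was turned into a q-value. The summit is the region start plus the deposited offset.

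Gene starts came from Ensembl release 115, with RefSeq symbols matched by sequence name because Ensembl gives identical copies 1 name. A 32-mer counts as repeated if it occurs more than once in the genome, mitochondrial DNA included, on either strand. Identities came from BLAST 2.17.0 and Biopython 1.88, with other steps in Python 3.11.15 (numpy 2.4.6, pandas 2.3.3). Of the steps, only the marking of repeated words and the count of summits in a window were tested on simulated data.

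Members, lists and alternatives were chosen with earlier results of these data known. Named genes were the members, both gene lists, the nearest neighbours and the 3 divergent pairs most alike. Values were given for the 3 strongest of each list, and also for *hsp-90* and *hsp-70*. The strongest were taken within 500 bp for the heat shock response genes and within 5000 bp for the other small heat shock genes. Precision rests on the spread of 2 replicates, which the labels do not say were grown apart. No p-values were computed.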

Additional observations from a re-analysis of the deposited data

How the results depend on the processing

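The count of *hsp-16* genes with a nearby thresholded summit was 6. It was 2 with a window of 500 bp, 0 with peaks of above-median signal and 2 with peaks of q at most 0.01. It was 4 within 1000 bp, and 6 within 2000 bp, from coding starts, from every transcript start or by overlap. From the 2095 strongest candidates of 1 replicate it ranged from 6 to 6, but in replicate 4 the spacer region, at rank 3297, was not among them and the count came from other regions. Divided by the median of the strongest regions, a change of unit, the relative signal was 0.936 at *hsp-16.2* and *hsp-16.41*, 0.801 in the spacer and 0.733 at *T27E4.1*. With either replicate left out, it ranged from 2.54 to 2.83, from 1.70 to 2.86 and from 1.53 to 2.66 at the same peaks. Repeated sequence between *hsp-16.2* and *hsp-16.41* was 13.4% with 20-mers and 0% with 50-mers, against 1.06%, and 100% at both other pairs with either. Wholly between the starts, heat shock elements numbered 1 at *hsp-16.2* and *hsp-16.41* and 2 at each other pair with 3 units; with 2 units there were 3, 4 and 4, and with 4 units 0 at each. Of other small heat shock genes, 3 had a summit in a window of 5000 bp, an alternative added after seeing the data, against 0 within 500 bp, and leaving out a replicate gave 0 to 0. For the heat shock response genes, the window of 5000 bp gave 7, peaks of above-median signal 6 and leaving out a replicate 6 to 6. Of genes in divergent pairs alone, 23.9% had a thresholded summit within 5000 bp, against 18.2% of all genes.

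No paired analysis was possible because the series has 1 group and no comparison between groups. Depth is unknown, no sample without the tag was analysed here, and 2 replicates give a rough SD. A lack of regions over repeated promoters is not a measured lack of binding.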
